A study of Homo sapiens with 18 samples.

Results

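The levels of 6 genes that mark epithelial cells were followed across the study: the adhesion molecules EPCAM and CD24, the tight junction claudins CLDN7 and CLDN4, the desmosome plaque gene DSP and the splicing regulator ESRP1. They were chosen by platform symbol, and each had 1 feature (a transcript cluster of the array), so 6 of the 14884 distinct gene symbols named on the array are described. RNA was hybridised to 18 Affymetrix Human Gene 2.0 ST arrays in 6 groups of 3. SKBR3, a HER2-positive breast cancer line, received a control antisense oligonucleotide (ASO) or one against the long non-coding RNA LINC01269. MDA-MB-231 and MDA-MB-468, both triple-negative breast cancer lines, received a control ASO or the ASO1 against AL078604.2. All 6 groups carried an ASO, a GapmeR that directs cleavage of its target, at 15 nM for 48 h with the TransIT-BrCa reagent, and no untreated cells are among the groups. Only 1 oligonucleotide per target was used, and whether the 3 arrays of a group came from separate cultures is not given in the labels, so p-values measure the spread between these samples, which may be technical.

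Epithelial cells are held together by several kinds of junction. Claudins form the sealing strands of tight junctions, desmosomes tie the keratin filaments of neighbouring cells together, and EPCAM is a surface glycoprotein that contacts claudins directly. ESRP1 binds RNA and favours the epithelial exons of transcripts such as CD44, FGFR2 and ENAH. During epithelial-mesenchymal transition (EMT), repressors of the ZEB and SNAI families bind E-box sequences in the promoters of such genes and silence them. Among the lines used, MDA-MB-231 is regarded as mesenchymal-like and claudin-low with little EPCAM, CLDN7, CLDN4, CD24 and ESRP1, whereas SKBR3 and MDA-MB-468 are known as EPCAM-positive.

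The deposited values are log2 expression values, a scale read from their range of 0.41 to 13.84. Array medians lay between 4.56 and 4.63 in the SKBR3 arrays, 5.41 and 5.43 in the arrays labelled MDA-MB-231 and 5.21 and 5.24 in the MDA-MB-468 arrays, so deposited values of different lines cannot be set against each other. Levels between lines are given as the percentile of a feature among the 53617 features of its array, or on log2 values quantile-normalized over the 18 arrays. Replicate arrays correlated with r of 0.985 to 0.992. A percentile also depends on how brightly a feature's probes hybridise, so percentiles of different genes are not read as an order of abundance. LINC01269 and AL078604.2 are not among the named features, and the level of either target was not analysed here. Line and processing run cannot be told apart in any comparison between lines.

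The labels of the lines were checked against the genes themselves. Over the 18 arrays EPCAM ran from percentile 98.9 to 99.4, CD24 from 99.6 to 99.7, DSP from 98.4 to 99.5, ESRP1 from 96.5 to 98.2, CLDN7 from 95.9 to 97.5, and CLDN4 from 83.2 to 91.1. The control means for the labels SKBR3, MDA-MB-231 and MDA-MB-468 were 98.9, 99.2 and 99.3 for EPCAM, 96.3, 96.9 and 97.3 for CLDN7, and 99.7, 99.6 and 99.6 for CD24. High levels of these genes in the arrays labelled MDA-MB-231 go against what is known of that line. Line names below are therefore the labels of the arrays. VIM, the filament gene of mesenchymal cells and a marker of MDA-MB-231, had control means at percentile 76.1 under the SKBR3 label, 76.6 under the MDA-MB-231 label and 82.1 under the MDA-MB-468 label. The EMT repressor ZEB1 stood at 43.7, 45.8 and 33.3 in the same order. GRB7, which lies beside ERBB2 in the segment amplified in SKBR3, stood at 79.1, 81.3 and 78.8, and on quantile-normalized values was lower in SKBR3 than in the arrays labelled MDA-MB-231 (-0.24 ± 0.0854 log2, limma adjusted p = 0.0419), against the SKBR3 label. EGFR, which MDA-MB-468 cells carry in amplified form, stood at 99.0, 98.2 and 98.7, and was higher under the SKBR3 label than under the MDA-MB-468 label (0.26 ± 0.0951, adjusted p = 0.0411). The mesenchymal receptor kinase AXL, known to be high in MDA-MB-231 cells, stood at 80.7, 83.2 and 60.1. The basal keratins KRT5 and KRT14 stood at 69.6, 73.4 and 85.8 and at 71.9, 89.2 and 79.3, the luminal keratin KRT18 at 98.7, 98.5 and 97.0, and the oestrogen receptor gene ESR1 at 59.8, 55.5 and 52.4. The tumour suppressor RB1, known to be lost in MDA-MB-468, was lowest in the arrays of that label (47.7, 60.3 and 24.9). The markers thus ran partly with and partly against the labels. CDH1 and ERBB2 had no named feature.

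**Figure D1:**
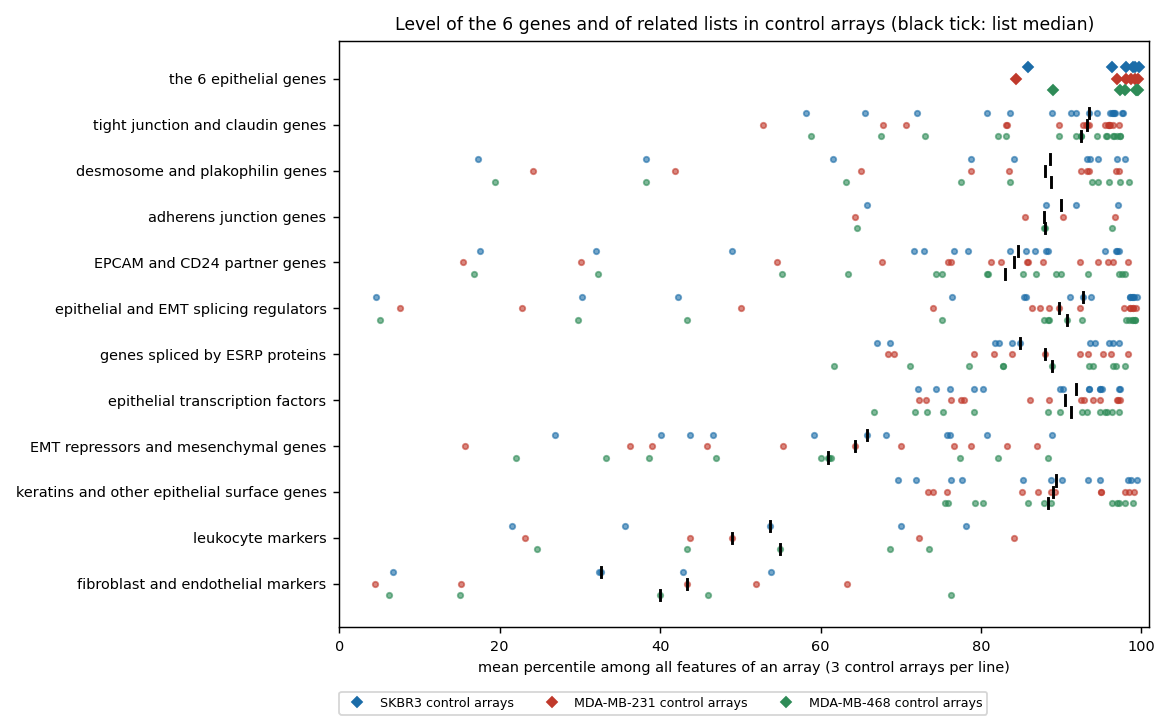
Mean percentile (x axis, 0 to 100) of each gene among all features of the array in the 3 control arrays of SKBR3 (blue), MDA-MB-231 (red) and MDA-MB-468 (green); each row is a gene list, diamonds are the 6 genes, circles are list members and black ticks are list medians. CLDN4 lies between 84.3 and 89.0, the other genes lie between 96.3 and 99.7 in every line, and the EMT repressors and mesenchymal genes have medians of 65.8, 64.3 and 60.9.

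The plot of control percentiles sets the 6 genes beside lists of related genes. Medians of the 17 named tight junction and claudin genes were 93.4 in the SKBR3 control arrays, 93.2 in the arrays labelled MDA-MB-231 and 92.5 in the MDA-MB-468 arrays. The 10 named desmosome and plakophilin genes had medians of 88.6, 88.0 and 88.7. The 15 named epithelial and EMT splicing regulators had medians of 92.7, 89.7 and 90.7, and ESRP2, the paralogue of ESRP1, stood at 92.7, 92.3 and 90.7. The epithelial transcription factor GRHL2, an activator of EPCAM and claudin genes, stood at 93.5, 92.5 and 93.2. Among markers of other cell types, the 5 named leukocyte markers had medians of 53.7, 49.0 and 55.0, with LYZ at 21.5, 23.2 and 24.6 and the macrophage gene CD68 at 78.1, 84.1 and 68.7. The 5 named fibroblast and endothelial markers had medians of 32.6, 43.3 and 40.0, from the proteoglycan DCN at 6.7, 4.5 and 6.2 to the endothelial receptor KDR at 53.8, 63.3 and 76.3.

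EPCAM (chromosome 2, 47369311 to 47387020, GRCh38.p14, RefSeq) was bright in every array. Deposited log2 values were 10.88, 10.92 and 10.87 in the SKBR3 control arrays and 10.95, 10.95 and 10.91 with the anti-LINC01269 ASO. In the arrays labelled MDA-MB-231 they were 12.11, 12.03 and 12.09 with the control ASO and 12, 12.06 and 12.12 with the anti-AL078604.2 ASO. In the MDA-MB-468 arrays they were 11.95, 11.87 and 11.90 with the control and 11.84, 11.90 and 11.99 with the anti-AL078604.2 ASO. Control and ASO values overlapped in each line. EPCAM was nearly flat under each ASO, with log2 differences of 0.04 ± 0.0466 (SE, 3 arrays against 3) in SKBR3, -0.02 ± 0.0466 in the arrays labelled MDA-MB-231 and 0.00 ± 0.0466 in MDA-MB-468, and 95% intervals of -0.06 to 0.14, -0.12 to 0.08 and -0.10 to 0.10. The SE of a gene rests on a spread pooled over all 6 groups, so it is the same in every line.

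CD24 (chromosome 6, 106969831 to 106976855, GRCh38.p14), a small glycan-rich protein anchored by lipid in the membrane, was near the top of the percentile scale in every array, where percentiles have little room to differ. RefSeq lists 4 CD24 pseudogenes on autosomes, and how the array's probes divide the signal between them and CD24 is unknown here, so its level is uncertain. Deposited log2 values were 12.03, 12.02 and 11.98 in the SKBR3 control arrays and 11.88, 12.05 and 11.91 with the anti-LINC01269 ASO. The arrays labelled MDA-MB-231 read 12.59, 12.67 and 12.64 with the control and 12.63, 12.60 and 12.58 with the anti-AL078604.2 ASO. In MDA-MB-468 the values were 12.44, 12.44 and 12.52 with the control and 12.39, 12.39 and 12.44 with the anti-AL078604.2 ASO. Every ASO difference was slightly below 0 (-0.06 ± 0.0455, -0.03 ± 0.0455 and -0.06 ± 0.0455 log2 in the order of the lines above), and the groups overlapped in each line, in MDA-MB-468 by less than the rounding of the values.

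CLDN7 (chromosome 17, 7259903 to 7263213, GRCh38.p14) is the claudin known to form a complex with EPCAM. Its deposited log2 values were 9.49, 9.47 and 9.43 in the SKBR3 control arrays and 9.41, 9.36 and 9.34 with the anti-LINC01269 ASO, so the groups did not overlap although they lay close together. In the arrays labelled MDA-MB-231 they were 10.40, 10.60 and 10.66 with the control and 10.73, 10.68 and 10.55 with the anti-AL078604.2 ASO. The MDA-MB-468 arrays gave 10.40, 10.53 and 10.59 with the control and 10.57, 10.34 and 10.07 with the anti-AL078604.2 ASO. CLDN7 differed by -0.09 ± 0.0996 log2 in SKBR3 (95% interval -0.30 to 0.12), 0.10 ± 0.0996 in the arrays labelled MDA-MB-231 (-0.11 to 0.31) and -0.18 ± 0.0996 in MDA-MB-468 (-0.39 to 0.03).

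CLDN4 (chromosome 7, 73830996 to 73832690, GRCh38.p14), a barrier-forming claudin of many glandular epithelia, had the lowest percentile of the 6 genes. Among the 14884 named genes its control means stood at percentile 76.7 in SKBR3, 73.2 in the arrays labelled MDA-MB-231 and 82.0 in MDA-MB-468. Deposited log2 values were 7.39, 7.38 and 7.46 in the SKBR3 control arrays and 7.22, 7.40 and 7.22 with the anti-LINC01269 ASO. In the arrays labelled MDA-MB-231 they were 7.85, 7.93 and 8.08 with the control and 8.14, 7.83 and 7.82 with the anti-AL078604.2 ASO. These groups overlapped in both lines. In the MDA-MB-468 arrays CLDN4 read 8.82, 8.35 and 8.25 with the control and 8.18, 8.02 and 8.07 with the anti-AL078604.2 ASO, so all 3 ASO arrays lay below all 3 controls, and the first control array stood above the others.

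DSP (chromosome 6, 7541671 to 7586714, GRCh38.p14) encodes desmoplakin, which links keratin filaments to the desmosome. Deposited log2 values were 11.09, 11.25 and 11.13 in the SKBR3 control arrays and 11.09, 11.33 and 11.12 with the anti-LINC01269 ASO. In the arrays labelled MDA-MB-231 they were 11.52, 11.56 and 11.59 with the control and 11.59, 11.48 and 11.36 with the anti-AL078604.2 ASO. The MDA-MB-468 arrays read 12.01, 11.93 and 12.10 with the control and 11.91, 11.96 and 12.13 with the anti-AL078604.2 ASO. The groups overlapped in each line, and the differences were 0.03 ± 0.0770, -0.08 ± 0.0770 and -0.02 ± 0.0770 log2.

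ESRP1 (chromosome 8, 94641174 to 94707466, GRCh38.p14) had the widest spread in SKBR3. Deposited log2 values were 10.24, 10.30 and 10.25 in the SKBR3 control arrays and 9.58, 10.29 and 9.97 with the anti-LINC01269 ASO. Replicates 1 and 3 of the ASO group lay below all controls and replicate 2 lay among them. In the arrays labelled MDA-MB-231 the values were 11.12, 11.16 and 11.11 with the control and 11.05, 11.07 and 11.01 with the anti-AL078604.2 ASO, a shift of -0.09 ± 0.112 log2 without overlap. In MDA-MB-468 they were 10.95, 10.83 and 10.81 with the control and 10.73, 10.86 and 10.85 with the anti-AL078604.2 ASO, which overlapped.

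**Figure D2:**
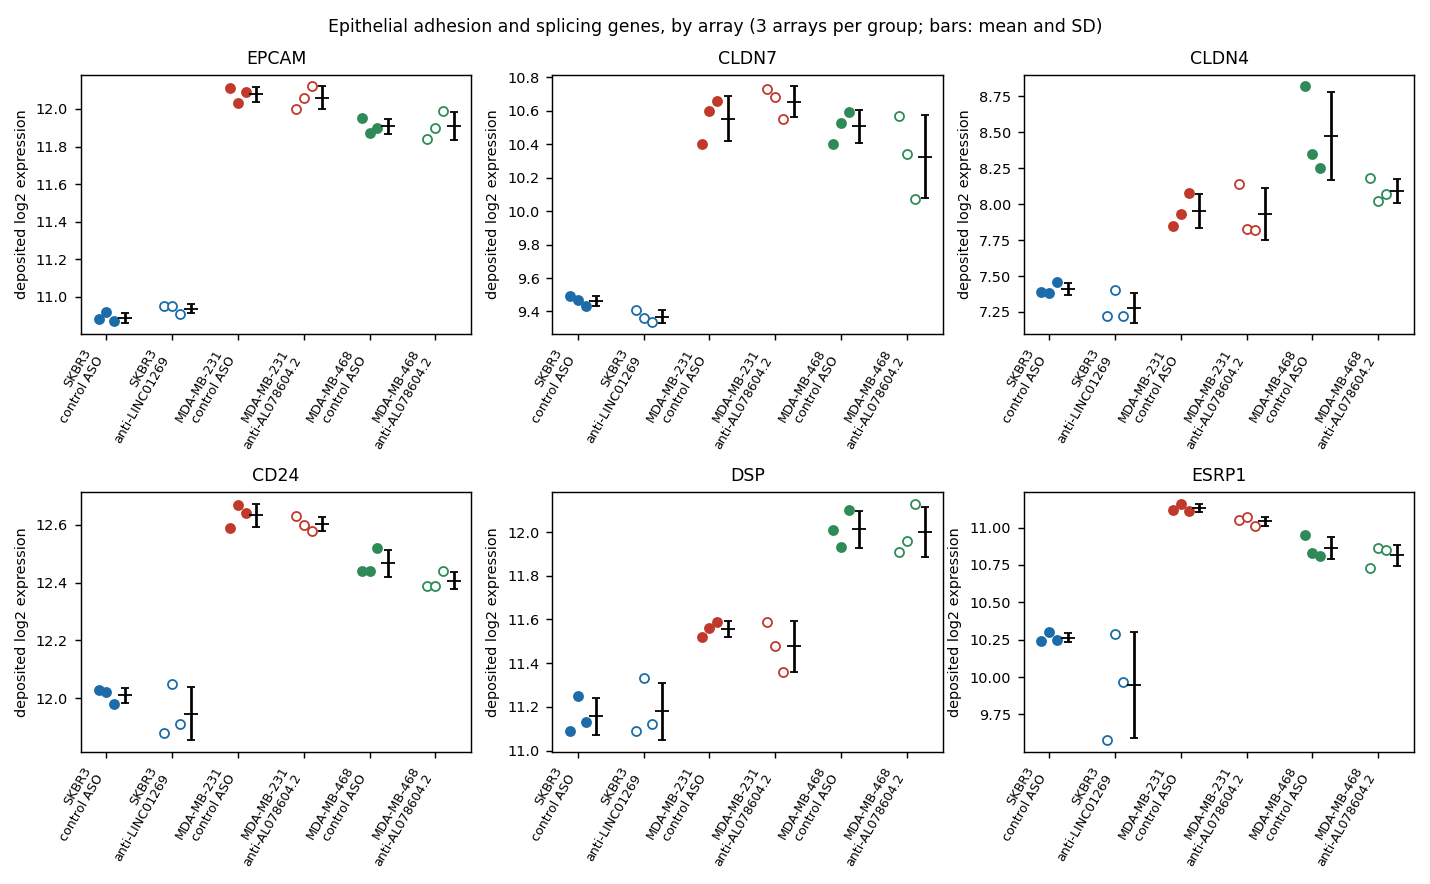
Deposited log2 value (y axis) of each gene in each of the 18 arrays, by group (x axis: 3 lines, control or anti-lncRNA ASO), with points for arrays (filled control, open anti-lncRNA) and black bars for the group mean and SD; array medians differ between lines, so values are compared within a line. The 3 anti-LINC01269 arrays of ESRP1 spread from 9.58 to 10.29, and the 3 anti-AL078604.2 arrays of CLDN4 in MDA-MB-468 lie at 8.02 to 8.18, below the controls at 8.25 to 8.82.

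The first question of the design was what an ASO against LINC01269 does in SKBR3. The largest difference among the 6 genes was in ESRP1, at -0.32 ± 0.112 log2 (0.80 of the control level, 95% interval -0.56 to -0.08, unadjusted p = 0.0119, limma adjusted p = 0.437). That SE pools the spread of all groups, while the SD of ESRP1 was 0.352 in the anti-LINC01269 arrays and 0.0299 in their controls. With only the SKBR3 arrays in the fit, the limma adjusted p of ESRP1 was 0.808. No member passed the threshold of an adjusted p of 0.05 in limma's moderated test, and 1 of 6 had an unadjusted p below 0.05. Over all 29855 features tested 0% passed, and 9.16% (2736 features) had an unadjusted p below 0.05. Without anti-LINC01269 replicate 2, the array in which ESRP1 lay among the controls, ESRP1 differed by -0.488 log2 with an adjusted p of 0.0156, and 232 features passed in place of 0. Leaving out the other arrays of that line in turn gave ESRP1 differences that reached -0.136 at the smallest. The summed linear level of the 5 named fibroblast and endothelial markers was 72.4 to 78.1 in the control arrays and 78.8 to 90.1 in the ASO arrays, and that of the 5 leukocyte markers 182.8 to 212.5 and 185.8 to 218.3. Only 2 of the 5 fibroblast and endothelial markers and 3 of the 5 leukocyte markers were tested. None of these passed, as no feature did in SKBR3. The part of the markers in the ESRP1 difference was not tested. In bulk RNA, fewer cells carrying a transcript and less of it per cell cannot be told apart.

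The remaining genes in SKBR3 differed by -0.13 to 0.04 log2, with adjusted p from 0.708 to 0.955. CLDN7 was the only member of the 6 whose groups did not overlap there, while 11.5% of features had groups that did not overlap. The median difference of the 6 genes was -0.08 log2, beside 0.01 over all features tested.

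The second question was what the ASO against AL078604.2 does in the triple-negative lines. In the arrays labelled MDA-MB-231 the 6 genes differed by -0.09 to 0.10 log2, and none passed limma's test (adjusted p 0.833 to 0.978) or had an unadjusted p below 0.05. Of all features 0.171% passed there and 9.35% (2792 features) had an unadjusted p below 0.05. ESRP1 was the only one of the 6 without overlap, against 17.2% of all features. The median of the 6 was -0.03 log2, beside 0.01 over all features. The 51 features called became 535 without anti-AL078604.2 replicate 1 and 0 without any other array of the line, so the background share is unsteady.

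In the MDA-MB-468 arrays CLDN4 was lower with the ASO by a mean of -0.38 ± 0.124 log2, a ratio of 0.77 (95% interval -0.65 to -0.12, unadjusted p = 0.0071, limma adjusted p = 0.307). It was lower in 3 of 3 ASO arrays than in any control array and did not pass the threshold. The SE pools all groups, while the SD of CLDN4 was 0.305 in these control arrays and 0.079 with the ASO. With only the arrays of that line in the fit, the limma adjusted p was 0.377. Without control replicate 1 the difference was -0.209. In that replicate CLDN4 was the highest of the line and VIM the lowest. VIM read 7.04 there, against 7.38 and 8.23 in the other control arrays and 8.52, 7.81 and 8.13 with the ASO. The part of such differences between arrays in the CLDN4 result was not tested. The summed level of the fibroblast and endothelial markers was 179.4 to 206.3 in these control arrays and 180.9 to 208.0 with the ASO, so the groups overlapped, and that of the leukocyte markers was 256.9 to 277.2 and 259.1 to 322.2. CLDN4 was the only one of the 6 without overlap, where 16.9% of features had none. No member passed, 1 had an unadjusted p below 0.05, and 0.0067% of features passed while 10.5% (3131 features) had an unadjusted p below 0.05. The median of the 6 genes was -0.05 log2, beside 0.00 over all features.

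Both triple-negative lines received the same ASO, so the difference between their responses was tested directly. It was -0.36 ± 0.176 log2 for CLDN4 (95% interval -0.73 to 0.01, unadjusted p = 0.0586, limma adjusted p = 0.998) and -0.28 ± 0.141 for CLDN7 (-0.58 to 0.02, unadjusted p = 0.0648, adjusted p = 0.998), both more negative in MDA-MB-468. For EPCAM, CD24, DSP and ESRP1 it lay between -0.03 and 0.07. No member passed or had an unadjusted p below 0.05, and 0% of features passed, with 4.16% (1243 features) below an unadjusted p of 0.05.

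**Figure D3:**
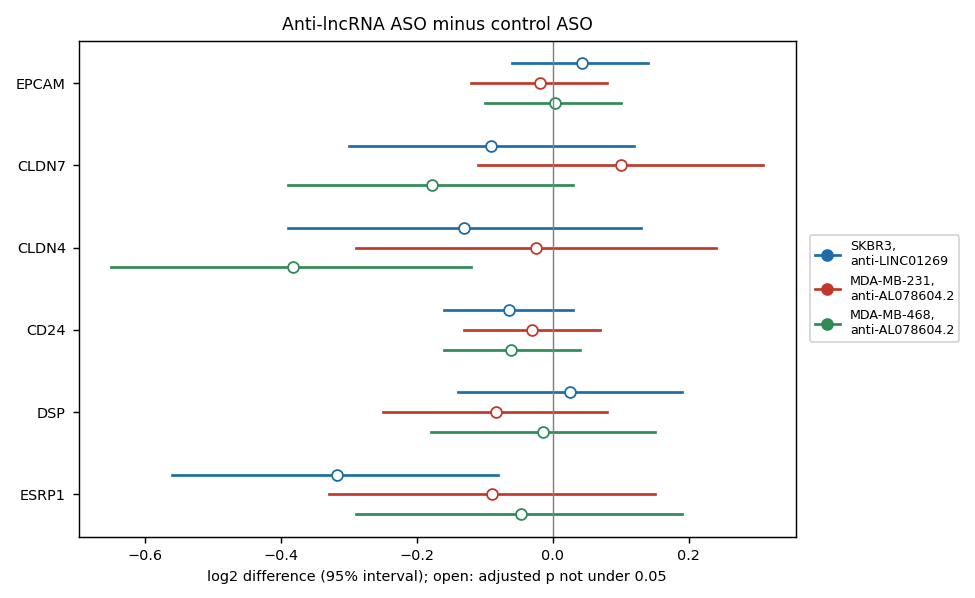
Log2 difference, anti-lncRNA ASO minus control ASO (x axis), for the 6 genes in each of the 3 lines, with 95% intervals from limma as bars and open points for an adjusted p of 0.05 or more. Intervals of ESRP1 in SKBR3 (-0.56 to -0.08) and of CLDN4 in MDA-MB-468 (-0.65 to -0.12) lie below 0 and all others cross it, and none passes after adjustment over the 29855 features. The intervals of a gene rest on a spread pooled over all groups, not on the spread within each line.

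Levels between control arrays were compared on quantile-normalized log2 values, for which the lines' order differed from gene to gene. EPCAM was lowest in SKBR3. Its quantile-normalized control values were 11.36, 11.44 and 11.39 in SKBR3, 11.77, 11.67 and 11.70 in the arrays labelled MDA-MB-231 and 11.87, 11.74 and 11.78 in MDA-MB-468. All SKBR3 arrays lay below all others. The difference was -0.32 ± 0.0565 log2 from the arrays labelled MDA-MB-231 (limma adjusted p = 0.000567) and -0.40 ± 0.0565 from MDA-MB-468 (adjusted p = 5.48e-05). MDA-MB-468 and the arrays labelled MDA-MB-231 differed by 0.08 (95% interval -0.03 to 0.20, adjusted p = 0.297).

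CLDN7 was also lowest in SKBR3, with quantile-normalized values of 10.00, 9.96 and 9.94, against 10.07, 10.25 and 10.31 in the arrays labelled MDA-MB-231 and 10.26, 10.37 and 10.45 in MDA-MB-468. The difference from MDA-MB-468 was -0.40 ± 0.0984 log2 (adjusted p = 0.00513). The difference from the arrays labelled MDA-MB-231, -0.24 ± 0.0984, had an adjusted p of 0.0692, and became a call with only the arrays of the lines compared (0.0186), with median centring in place of quantile normalization (0.0486) or without MDA-MB-231 control replicate 1 (0.0406). The triple-negative lines differed by 0.15 (95% interval -0.06 to 0.36, adjusted p = 0.279).

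CLDN4 was highest in MDA-MB-468. Quantile-normalized control values were 8.67, 8.21 and 8.12 there, 7.85, 7.81 and 7.93 in SKBR3 and 7.55, 7.62 and 7.77 in the arrays labelled MDA-MB-231, and no 2 lines overlapped. CLDN4 was 1.61-fold higher in MDA-MB-468 than in the arrays labelled MDA-MB-231 (0.68 ± 0.121 log2, adjusted p = 0.000654). It was -0.47 ± 0.121 log2 in SKBR3 against MDA-MB-468 (adjusted p = 0.00646), a difference of -0.300 without MDA-MB-468 control replicate 1 (adjusted p = 0.0355). SKBR3 and the arrays labelled MDA-MB-231 differed by 0.21 (95% interval -0.04 to 0.47, adjusted p = 0.195).

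DSP had the order MDA-MB-468, SKBR3, MDA-MB-231, with quantile-normalized values of 11.91, 11.80 and 11.96, then 11.55, 11.74 and 11.62, then 11.20, 11.20 and 11.23. No 2 lines overlapped. It was 0.68 ± 0.0824 log2 higher in MDA-MB-468 than in the arrays labelled MDA-MB-231 (adjusted p = 2.48e-05), and 0.43 ± 0.0824 higher in SKBR3 than in the arrays labelled MDA-MB-231 (adjusted p = 0.00102). The step between SKBR3 and MDA-MB-468 was smaller, at -0.25 ± 0.0824 (adjusted p = 0.0246), and was no longer a call without SKBR3 control replicate 1 (0.0966) or 3 (0.064), or without MDA-MB-468 control replicate 1 (0.0665) or 3 (0.0925).

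CD24 and ESRP1 differed least. CD24 read 12.46, 12.46 and 12.44 on the quantile-normalized scale in the SKBR3 controls, 12.34, 12.31 and 12.37 in MDA-MB-468 and 12.26, 12.31 and 12.29 in the arrays labelled MDA-MB-231. SKBR3 was 0.17 ± 0.0492 log2 above the arrays labelled MDA-MB-231 (adjusted p = 0.015, or 0.0609 without the intensity trend) and 0.11 ± 0.0492 above MDA-MB-468 (adjusted p = 0.084, or 0.0116 at a difference of 0.184 with median centring). ESRP1 read 10.75, 10.79 and 10.77 in SKBR3, 10.79, 10.80 and 10.72 in the arrays labelled MDA-MB-231 and 10.83, 10.69 and 10.66 in MDA-MB-468, with overlap between every pair of lines. Its differences were 0.00 (95% interval -0.25 to 0.25), 0.04 (-0.21 to 0.29) and -0.04 (-0.29 to 0.21), with adjusted p from 0.812 to 0.998.

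Many features differed between the lines, so the calls of the 6 genes are set beside the share of all features called. Between SKBR3 and the arrays labelled MDA-MB-231, 3 of 6 were called, 2 higher in SKBR3 and 1 lower, where 31.5% of all features were called (15.1% higher and 16.4% lower). Between SKBR3 and MDA-MB-468, 4 of 6 were called, all lower in SKBR3, where 35.5% of features were called and 18.1% lower. Between MDA-MB-468 and the arrays labelled MDA-MB-231, 2 of 6 were called, both higher in MDA-MB-468, where 26.1% were called and 12.8% higher. Arrays of the 2 lines did not overlap for 5, 5 and 2 of the 6 genes in the same order, against 48.6%, 50.7% and 47.1% of all features. Among the 11148 named genes tested, with 1 feature per gene, the shares called were higher, at 33.7%, 39.6% and 31.5%, again in that order. The members and the lists below hold named genes only, so these shares are the closer comparison.

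**Figure D4:**
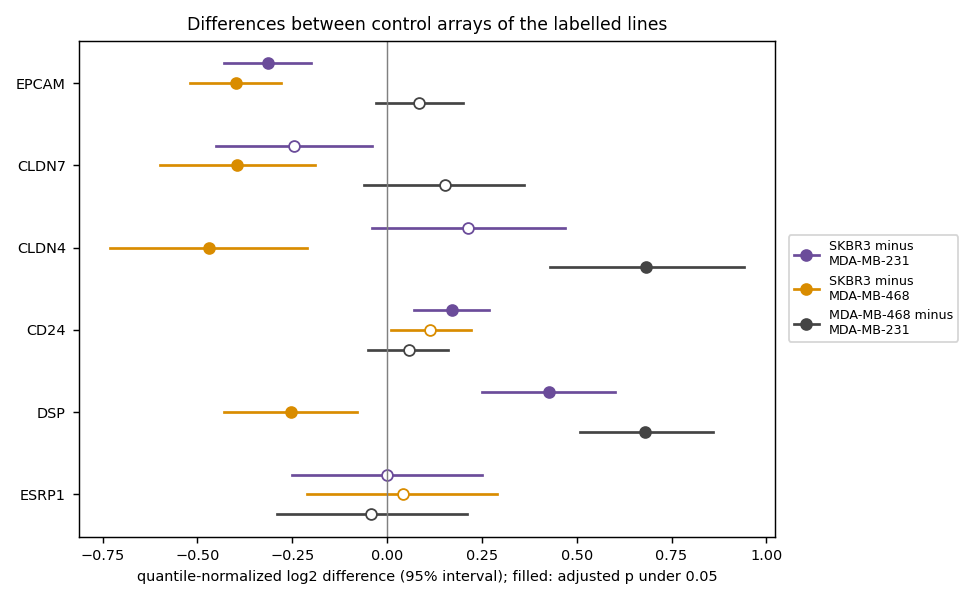
Log2 difference between control arrays of 2 lines (x axis, quantile-normalized values) for the 6 genes, with 95% intervals from limma as bars and filled points for an adjusted p below 0.05. DSP and CLDN4 stand 0.68 higher in MDA-MB-468 than in the arrays labelled MDA-MB-231, EPCAM stands 0.32 and 0.40 lower in SKBR3 than in the other lines, and ESRP1 lies within 0.04 of 0 in each comparison.

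CLDN4 and DSP had the highest r of the 15 pairs over the 18 arrays (0.72 on quantile-normalized values, with no test because the arrays share lines and runs), and an r of 0.22 once group means were subtracted, so the likeness lay mainly between lines. Their promoters are shown with that of CLDN7, as these genes differ in the E-boxes that ZEB and SNAI repressors bind. Each is the 250 bases before a RefSeq start site on GRCh38.p14, 5′ to 3′ on the gene's strand, with E-boxes (CACCTG or CAGGTG, which are the same motif read on opposite strands) in capitals. The windows are chr17:7262479-7262728, minus strand, for 1 of the 2 CLDN7 start sites, chr6:7541421-7541670, plus strand, for DSP, and chr7:73830746-73830995, plus strand, for CLDN4.
CLDN7: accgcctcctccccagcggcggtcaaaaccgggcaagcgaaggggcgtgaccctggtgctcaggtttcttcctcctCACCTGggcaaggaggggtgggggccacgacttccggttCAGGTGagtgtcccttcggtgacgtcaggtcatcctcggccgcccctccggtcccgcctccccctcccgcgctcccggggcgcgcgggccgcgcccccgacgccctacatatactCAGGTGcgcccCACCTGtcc
DSP: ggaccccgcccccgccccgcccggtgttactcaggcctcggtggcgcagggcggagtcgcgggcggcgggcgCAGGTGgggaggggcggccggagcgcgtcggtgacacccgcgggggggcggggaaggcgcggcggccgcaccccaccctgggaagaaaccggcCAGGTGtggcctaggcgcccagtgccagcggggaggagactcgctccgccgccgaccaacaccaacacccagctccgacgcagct
CLDN4: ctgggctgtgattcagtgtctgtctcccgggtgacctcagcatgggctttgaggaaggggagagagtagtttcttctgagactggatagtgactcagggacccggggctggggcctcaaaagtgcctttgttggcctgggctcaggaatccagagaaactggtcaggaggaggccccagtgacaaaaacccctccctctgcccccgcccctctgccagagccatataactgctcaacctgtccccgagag

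The CLDN7 window held 4 E-boxes, beginning 174, 135, 20 and 9 bases before the start site, and 0.122% of 35116 RefSeq promoter windows of the same length held at least 4. The window of the other CLDN7 start site held 0. DSP held 2, beginning 178 and 85 bases before the start site, as at least 2 did in 2.53% of windows. CLDN4 held 0, and the 3 CD24 windows held 0, 0 and 1, where 17.5% of all windows held at least 1. The grainyhead-type motifs AACCGGTT (found in 0.117% of all windows, both strands) and AACCTGTT or its complement AACAGGTT (0.595%) were in none of these 7 windows. A match is only a match of letters, and binding was not measured.

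Other genes of the same structures and pathways were looked up as lists. None of the tight junction, desmosome, adherens junction, splicing, epithelial transcription factor, EMT or keratin genes tested passed limma's test in any ASO comparison. Of all features 0% passed in SKBR3, 0.171% in the arrays labelled MDA-MB-231 and 0.0067% in MDA-MB-468. The absence of calls therefore says little about lists of this size. Of the 17 tight junction genes tested, 1 had an unadjusted p below 0.05 in SKBR3, 3 in the arrays labelled MDA-MB-231 and 2 in MDA-MB-468 (9.16%, 9.35% and 10.5% of all features in the same order), and list medians were -0.03, -0.01 and 0.04 log2. The smallest p in this list was that of CLDN1, a claudin of squamous and glandular barriers, at 0.42 ± 0.0974 log2 in the arrays labelled MDA-MB-231 (adjusted p = 0.0988). In MDA-MB-468 the smallest p-values of the list were those of CLDN8 and CLDN3, which differed by -0.32 ± 0.113 (adjusted p = 0.333) and -0.22 ± 0.0883 (adjusted p = 0.398), with all ASO arrays below all controls, as 16.9% of features had groups without overlap in either direction. Other claudins had deposited means on the other side, with CLDN1 at 10.50 in the controls and 10.69 with the ASO, CLDN9 at 6.20 and 6.26, and CLDN12 at 5.68 and 5.72. In the arrays labelled MDA-MB-231, an unadjusted p below 0.05 was found for 6 of 14 EPCAM and CD24 partner genes. It was found for 4 of 11 genes spliced by ESRP proteins, CD44 being in both lists, and for 3 of 8 desmosome genes. For splicing regulators it was 3 of 13, for epithelial transcription factors 3 of 14 and for keratin and surface genes 3 of 12. EMT genes had 1 of 8 and adherens junction genes 0 of 4.

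Among the 8 desmosome genes tested, PKP2, a plaque protein that binds desmoplakin, differed by 0.39 ± 0.0934 log2 in MDA-MB-468 (adjusted p = 0.193) and the desmosomal cadherin DSG2 by 0.27 ± 0.0818 (adjusted p = 0.278), with ASO arrays above controls, beside -0.02 for DSP itself. In the arrays labelled MDA-MB-231, PKP2 differed by 0.27 ± 0.0934 and DSG2 by 0.24 ± 0.0818 (adjusted p = 0.308 for each), with overlap. Of the 8, 4 were above 0 and 4 below in MDA-MB-468, and 6 and 2 in the arrays labelled MDA-MB-231. CD44, a hyaluronan receptor whose exons ESRP1 is known to regulate, differed by -0.32 ± 0.0774 in the arrays labelled MDA-MB-231 (adjusted p = 0.116) and -0.33 ± 0.0774 in MDA-MB-468 (adjusted p = 0.191), below all controls in both lines. These are gene-level values, so the exon use of CD44 was not measured. Groups did not overlap for 17.2% and 16.9% of all features in the same lines. Of the 8 EMT genes tested in SKBR3, 6 were above 0 and 2 below. The smallest p-values there were those of ZEB2 (0.54 ± 0.146, adjusted p = 0.344) and LOX (0.41 ± 0.146, adjusted p = 0.437). Both had all ASO arrays above all controls, as 11.5% of features had groups without overlap in either direction. ZEB2 stood below the array median in every control group (percentiles 40.1, 39.0 and 38.6), so it passed the filter only through ASO arrays. VIM differed by 0.60 ± 0.223 in MDA-MB-468 (adjusted p = 0.35), where the groups overlapped. GRHL2 differed by -0.23 ± 0.0832 in MDA-MB-468 (adjusted p = 0.336), with all ASO arrays below all controls, where 16.9% of features had groups without overlap in either direction.

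Between the control arrays, 3 desmosomal cadherins were higher in MDA-MB-468 than in the arrays labelled MDA-MB-231, as DSP was. DSC3 was 1.21 ± 0.0869 log2 higher in MDA-MB-468 (adjusted p = 1.89e-07), DSC2 0.69 ± 0.0717 higher (adjusted p = 5.96e-06) and DSG2 0.49 ± 0.0800 higher (adjusted p = 0.000318), so 3 of 8 desmosome genes tested were called higher and 1 lower, where 12.8% of all features were called higher and 13.3% lower. The median of the 8 was 0.07, with 5 above 0 and 3 below. A further cadherin, DSG3, was at percentile 19.4 in MDA-MB-468 and 24.2 in the arrays labelled MDA-MB-231. Of the 17 tight junction genes, 6 were higher and 2 lower in MDA-MB-468 (47.1% called, beside 26.1% of all features), with CLDN8 at 0.47 ± 0.114 (adjusted p = 0.00593) and OCLN at 0.32 ± 0.0757 (adjusted p = 0.00567). Against the arrays labelled MDA-MB-231, SKBR3 had 5 of the 17 higher and 3 lower (47.1% called, beside 31.5% of all features), led by PATJ, a polarity scaffold, at 0.80 ± 0.101 (adjusted p = 2.51e-05). The list medians were 0.01 and 0.08, beside -0.01 and 0.00 over all features, with members on both sides of 0. Against MDA-MB-468, SKBR3 had 1 of the 17 higher and 1 lower (11.8% called, beside 35.5% of all features). Of the 8 desmosome genes, SKBR3 had 2 higher and 0 lower than the arrays labelled MDA-MB-231, where 31.5% of features were called. Compared with MDA-MB-468, 1 of the 8 was higher in SKBR3 and 2 lower (37.5%, beside 35.5%).

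Splicing regulators other than ESRP1 differed between lines. Of the 13 tested, 5 were higher and 2 lower in SKBR3 than in the arrays labelled MDA-MB-231 (53.8%, beside 31.5% of all features), with HNRNPH1 at 0.80 ± 0.0651 log2 (adjusted p = 2.84e-07), MBNL1 at 0.55 ± 0.0637 and SRSF3 at 0.36 ± 0.0469. Compared with MDA-MB-468, SKBR3 had 7 higher and 4 lower (84.6%, beside 35.5% of all features). Of the 11 named EMT genes, 8 passed the filter and were tested. Between SKBR3 and the arrays labelled MDA-MB-231, 0 of these 8 were called, beside 31.5% of all features. The receptor kinase AXL was lower in MDA-MB-468 than in the arrays labelled MDA-MB-231 (-1.90 ± 0.126 log2, adjusted p = 1.07e-07), and the repressor SNAI2 differed by -1.34 ± 0.143 (adjusted p = 8.11e-06). LOX, a collagen cross-linking enzyme, was higher by 0.64 ± 0.145 (adjusted p = 0.00402), and VIM differed by 0.62 ± 0.222 (adjusted p = 0.0511). Of the 8 tested, 1 was called higher and 2 lower (37.5%, beside 26.1% of all features and 31.5% of named genes), and the median was 0.11. Between SKBR3 and MDA-MB-468, 2 of the 8 were called higher in SKBR3 and 2 lower, where 35.5% of all features were called. The higher were AXL (1.62 ± 0.126 log2, adjusted p = 1.2e-07) and SNAI2 (1.04 ± 0.143, adjusted p = 4.09e-05). The lower were LOX (-0.78 ± 0.145, adjusted p = 0.000654) and VIM (-0.66 ± 0.222, adjusted p = 0.0296).

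The 6 genes did not follow a common course across arrays. Over the 15 pairs, r on quantile-normalized values ran from -0.53 (CLDN7 and CD24) to 0.72 (CLDN4 and DSP), with a median of 0.23. Within groups, after each group mean was subtracted, it ran from -0.84 (EPCAM and CLDN7) to 0.85 (CD24 and ESRP1). EPCAM and CLDN7, whose proteins bind each other, thus had an r of 0.62 over the 18 arrays and of -0.84 within groups. The within-group value was -0.72 without the 2 arrays farthest in EPCAM, -0.35 in the 6 arrays of SKBR3, -0.87 in the arrays labelled MDA-MB-231 and -0.92 in MDA-MB-468. On deposited values it was -0.76 over all arrays, and 0.50 in SKBR3, so the sign there depends on the scaling. CD24 and ESRP1 had a within-group r of 0.20 without the 2 arrays farthest in CD24. On deposited values the same step took r from 0.67 to 0.53, so the drop depends on the scaling. By line their within-group r was 0.98 in SKBR3, -0.09 in the arrays labelled MDA-MB-231 and 0.30 in MDA-MB-468. On deposited values these were 0.88, 0.53 and -0.13. CD24 and DSP had an r of 0.50 over the 18 arrays before group means were subtracted. Within groups their r was 0.77, and 0.69 without the 2 arrays farthest in CD24 (0.79 and 0.70 on deposited values). By line it was 0.85 in SKBR3, 0.17 in the arrays labelled MDA-MB-231 and 0.98 in MDA-MB-468.

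**Figure D5:**
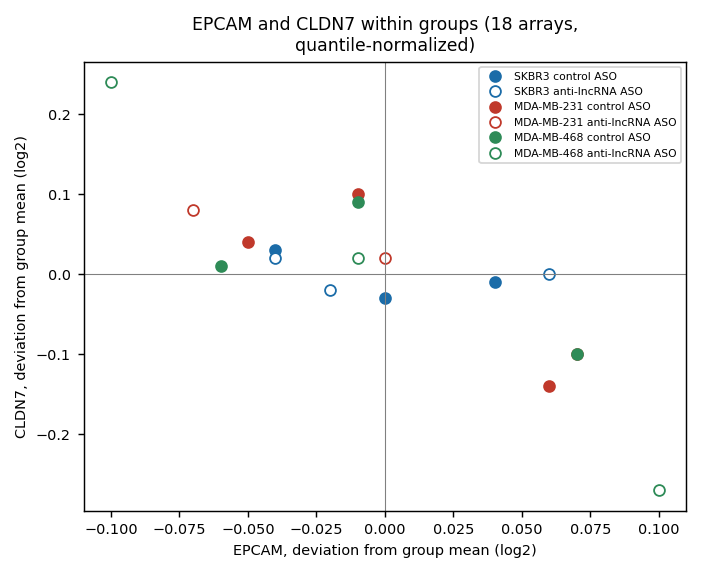
Deviation of CLDN7 (y axis) against deviation of EPCAM (x axis) from the mean of its group, in log2 of quantile-normalized values, for the 18 arrays; colours are lines, filled points control ASO and open points anti-lncRNA ASO. The points fall from upper left to lower right (r = -0.84), and the ends of the range are anti-AL078604.2 arrays of MDA-MB-468.

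Genes whose levels most resembled each member over the 18 arrays were ranked by r on quantile-normalized values, for features with 1 symbol. For EPCAM these were TMEM106B (0.975), CENPK (0.975) and VPS35 (0.973), and 233 named features had r above 0.9. For DSP they were CBX5 (0.972), MACF1 (0.971) and TMEM65 (0.971), with 154 named features above 0.9. CLDN7 was nearest to TSPAN3 (0.929), PCARE (0.921) and PLPP2 (0.912), with 3 features above 0.9. CLDN4 was nearest to DHRS1 (0.927), SYT7 (0.89) and DRD1 (0.885), with 1 feature above 0.9. CD24 was nearest to OVCH2 (0.915), PCMTD1 (0.914) and CDK5RAP2 (0.912), and ESRP1 to CDKAL1 (0.938), SMIM8 (0.932) and CCDC91 (0.925). None of these nearest genes is another member.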

How the data were processed

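Each of 18 RNA samples was hybridised to its own Affymetrix Human Gene 2.0 ST array. Per the labels' protocols, cells were lysed in TRIzol and RNA was cleaned with a PureLink kit before labelling (WT PLUS kit). The deposited log2 values were made by the authors with the Transcriptome Analysis Console, as the submitters' processing notes name it. Version, normalization and genome build are not given in the sources used here. Their log2 scale was read from the values. The number of arrays limits the precision.

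Of 53617 features, 16098 had 1 symbol in GEO's platform annotation, 0 several and 37519 none. Symbols were checked against a RefSeq table of GRCh38.p14, and 0 changed. Features were tested when the mean exceeded the median of all features in at least 1 group, which left 29855, with all 6 members. Group-means models were fitted to all 18 arrays with limma 3.58.1 in R 4.3.3, with an intensity trend and 12 residual degrees of freedom. ASO comparisons used the deposited values and line comparisons quantile-normalized values. Two-sided p-values were corrected by the Benjamini-Hochberg method across the 29855 features, with a threshold of 0.05, and are limma's unless said otherwise. The procedure was also run on simulated arrays in which a feature had the same spread in every group. Group spreads differ in these data, so that run does not show how the procedure behaves here.

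Named genes were the 6 members, the list members with the smallest p in a comparison, the line markers and the 3 features most like each member. ESRP2, GRHL2, DSG3, CLDN9, CLDN12 and the markers of other cell types were chosen after their values were seen. The members and lists were chosen with earlier results of these data known. Promoter windows came from a RefSeq table, and those of 4 of the 6 members were searched. For the members, windows on chromosome 8, where ESRP1 lies, were left out by choice. ESRP1 therefore has no motif counts here, and EPCAM has none because the table held no usable window for it. Alternatives were no intensity trend, other filters, other scalings, only the arrays compared, the replicate number as a block, and leaving out each array. The correlations within groups were chosen after seeing the data.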

Additional observations from a re-analysis of the deposited data

How the results depend on the processing

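Line names are those of the labels. Of 540 recomputed differences of the 6 genes, 509 kept their direction and side of the threshold, 5 lost a call, 5 gained one and 21 changed sign, and the gains and losses stand beside the results above. Those that changed sign were near 0 and not called. Quantile normalization gave -0.0127 for EPCAM and -0.0165 for DSP in SKBR3, and 0.021 for DSP in MDA-MB-468. With arrays left out in turn, DSP ran from -0.0508 to 0.0726 in SKBR3 and from -0.0803 to 0.0306 in MDA-MB-468. EPCAM ran from -0.05 to 0.011 in MDA-MB-231, from -0.0354 to 0.0371 in MDA-MB-468 and from -0.0163 to 0.0562 in the difference between those lines. CLDN4 ran from -0.128 to 0.0384 in MDA-MB-231, and ESRP1 from -0.0241 to 0.0148 between SKBR3 and MDA-MB-231 controls. The number of the 6 genes called in SKBR3 was 0 to 1.

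Counts over all features moved more. Leaving out arrays gave 0 to 232 calls in SKBR3, 0 to 535 in MDA-MB-231 and 0 to 12 in MDA-MB-468. In SKBR3, 1 feature was called with no filter. In MDA-MB-231, 26 were called without the trend, 28 with no filter, 99 with an upper quartile filter and 11 with only that line's arrays. In MDA-MB-468, 1 was called with the upper quartile filter and 1 with only that line's arrays. The upper quartile filter, which tests fewer features, gave 6211 calls between SKBR3 and MDA-MB-231 and 6958 between SKBR3 and MDA-MB-468. Otherwise the cause was not tested.

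Replicate numbers did not pair the samples: same-numbered control and ASO arrays deviated with r of -0.12 to 0.10. With the replicate number as a block, 0 features were called in MDA-MB-231 and 0 in MDA-MB-468, and 0 of the 6 genes in any ASO comparison. Another feature per symbol could not be tried, because each member has 1 feature. Each group has 3 arrays, so differences inside the intervals given cannot be shown.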
